A study of Mus musculus with 8 samples.

Results

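The genes Mecom, Mllt3, Meis1, Hlf, Tek and Procr, which mark or maintain blood stem cells, were followed through the open chromatin of 4 populations of common myeloid progenitors. The genes were chosen by name. A locus was the gene body in the mouse build mm10, extended by 20 kb to each side, and 6 of 21883 protein-coding loci are described. The peaks of all 8 libraries merged into 207739 regions, of which 199 lay in the 6 loci: 68 at Mecom, 49 at Mllt3, 46 at Meis1, 22 at Hlf, 9 at Tek and 5 at Procr.

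Common myeloid progenitors are marrow cells that give rise to platelet-forming, red and myeloid cells. ATAC-seq, which uses a transposase to insert adapters into open DNA, was run on primary marrow of wild-type C57BL/6 mice, on 40000 to 50000 cells per preparation and in 2 libraries per population. All 4 populations were sorted as KIT+ CD16/32- cells. C2 was CD34bright CD41+ CD9+, C13 was CD34dim CD41- CD9-, C10 was CD34dim CD41+ CD9+ with bright CD48, and C18 was CD34dim CD41+ CD9+ with dim CD48. CD41 marks the megakaryocyte lineage as an integrin chain, CD9 is a tetraspanin and CD48 a SLAM family receptor. The age of the mice is not given, and nothing states that paired libraries of a population are from different mice, so p-values cover only the spread among the libraries at hand, which may be technical.

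Stem cell identity is held by a small set of nuclear regulators and read out by surface receptors. Mecom encodes the zinc finger factors MDS1-EVI1 and EVI1, Meis1 a homeobox factor that binds DNA with HOX proteins, and Hlf a PAR bZIP factor. Mllt3 encodes AF9, a YEATS domain protein of the transcription elongation machinery that maintains human cord blood stem cells in culture. Tek encodes TIE2, the angiopoietin receptor of endothelium and of stem cells in their niche, and Procr encodes EPCR, the protein C receptor used to sort stem cells. Regulatory genes of this kind are often open at elements far from their start sites as well as at the start itself.

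The starts themselves differed in whether an F-Seq peak covered them in all 8 libraries, and the sequences before 6 of them are printed. Each line gives the 250 bases before an annotated start, 5′ to 3′ on the gene's strand, from RefSeq for GRCm38.p6, the assembly of mm10. Capitals mark matches, on either strand, to 7 short motifs: AGATAA (read by GATA factors), TGTGGT (RUNX factors), AGGAAG (ETS factors), TGACAG (MEIS factors), CAGCTG (an E-box), TTACNTAA (HLF and its relatives) and CACCC (Kruppel-like factors), where N is any base. Mecom and Mllt3 each have an upstream and an internal start in this table.
Tek start: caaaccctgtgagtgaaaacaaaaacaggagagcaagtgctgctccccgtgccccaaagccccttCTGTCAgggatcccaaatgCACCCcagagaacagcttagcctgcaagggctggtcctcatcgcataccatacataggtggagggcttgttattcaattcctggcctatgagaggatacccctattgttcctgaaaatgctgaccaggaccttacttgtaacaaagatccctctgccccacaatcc
Mllt3 internal start: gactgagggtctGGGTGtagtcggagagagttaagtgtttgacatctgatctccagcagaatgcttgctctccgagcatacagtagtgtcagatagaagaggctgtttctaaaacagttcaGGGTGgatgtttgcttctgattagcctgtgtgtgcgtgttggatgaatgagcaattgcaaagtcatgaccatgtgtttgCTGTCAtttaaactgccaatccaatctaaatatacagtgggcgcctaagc
Mllt3 upstream start: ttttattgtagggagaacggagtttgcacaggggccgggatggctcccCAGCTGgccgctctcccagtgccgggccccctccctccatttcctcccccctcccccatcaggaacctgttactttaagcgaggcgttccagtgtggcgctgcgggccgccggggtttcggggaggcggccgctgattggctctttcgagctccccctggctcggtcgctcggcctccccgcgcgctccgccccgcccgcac
Mecom internal start: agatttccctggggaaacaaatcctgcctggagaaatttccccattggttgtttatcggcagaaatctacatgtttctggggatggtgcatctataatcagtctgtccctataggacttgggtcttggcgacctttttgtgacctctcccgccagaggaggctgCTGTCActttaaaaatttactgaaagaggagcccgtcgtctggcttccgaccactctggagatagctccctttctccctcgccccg
Mecom upstream start: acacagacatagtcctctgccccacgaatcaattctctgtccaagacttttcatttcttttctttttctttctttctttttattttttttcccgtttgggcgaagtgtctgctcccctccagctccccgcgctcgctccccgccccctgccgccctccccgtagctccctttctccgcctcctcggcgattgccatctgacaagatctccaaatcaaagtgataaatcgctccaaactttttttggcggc
Meis1 start: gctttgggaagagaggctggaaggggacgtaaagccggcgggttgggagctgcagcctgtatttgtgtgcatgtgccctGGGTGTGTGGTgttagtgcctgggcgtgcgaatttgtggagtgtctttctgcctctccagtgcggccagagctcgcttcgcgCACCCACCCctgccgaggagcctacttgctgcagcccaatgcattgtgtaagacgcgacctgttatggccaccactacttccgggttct

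The Tek line is chr4:94739039-94739288 on the plus strand. The other lines are on the minus strand, namely chr4:87806324-87806573 and chr4:88033408-88033657 for the internal and upstream starts of Mllt3, chr3:30013205-30013454 and chr3:30509760-30510009 for the internal and upstream starts of Mecom, and chr11:19018970-19019219 for Meis1. The Tek line holds 2 CpG pairs and the Mllt3 internal line 4. The Mecom internal line holds 8, the Meis1 line 13, the Mecom upstream line 14 and the Mllt3 upstream line 23. The starts of Procr and Hlf, not printed, have 13 and 26 CpG pairs in the same window.

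An F-Seq peak covered the start in all 8 libraries at Meis1, Hlf, Procr and the upstream start of Mllt3. It was missing in at least 1 library at Tek, at the internal start of Mllt3 and at both starts of Mecom. This split depends on the caller and the length of the lists, and does not follow peak strength. Peaks over the Procr start were ranked 41887 to 86649, against 16830 to 77402 for those over the Tek start. HOMER listed peaks in the regions of the Tek start in C13 and of the internal Mllt3 start, as given below. Among all annotated starts, a peak was found in all 8 libraries at 73.4% of the 12417 with 10 or more CpG pairs in the 250 bases, and at 14.2% of the 20434 with fewer. This limit of 10 was set after the members' values were seen. Of the 4 starts of these genes that varied, 3 had fewer than 10 and 1, the Mecom upstream start, had 14.

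**Figure D1:**
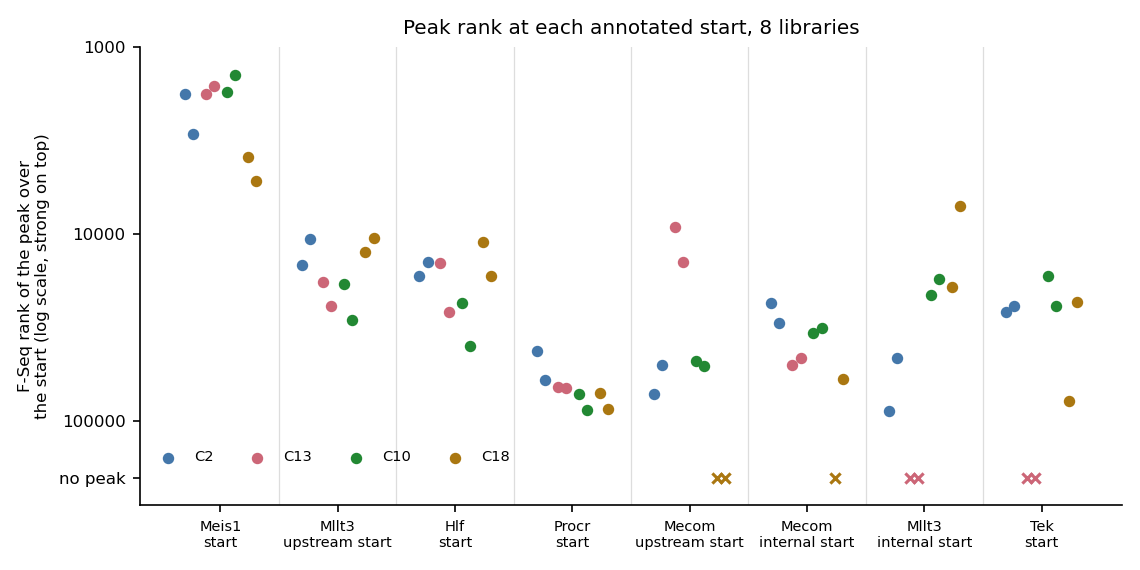
Rank of the F-Seq peak that covers each annotated start (vertical axis, log scale, strongest on top) in the 8 libraries, coloured by population, with crosses where no peak covered the start. The starts of Meis1, Hlf, Procr and the upstream start of Mllt3 have a dot for all 8 libraries, whereas crosses mark both C13 libraries at Tek and at the internal Mllt3 start and C18 libraries at the starts of Mecom.

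Of the 7 motifs, TGACAG was found at 3 of the 4 starts that varied and at none of the 4 covered in all libraries. It stood before Tek, the Mllt3 internal start and the Mecom internal start, at -185, -50 and -86 from the start, and is present in 19.2% of 32851 promoter windows of 300 bases (250 before and 50 after a start). TGTGGT was found at Meis1 alone, at -166, and in 16.8% of all windows. CAGCTG was found at the Mllt3 upstream start and at Procr, and in 16.3% of all windows. AGATAA occurred once, 36 bases after the Tek start and outside the printed line, against 11.2% of all windows. CACCC, a match in 57.5% of all windows, was found in the windows of every start except the 2 of Mecom. AGGAAG and TTACNTAA, present in 35.4% and 2.32% of all windows, were in none of the 8 windows. A match is a description of letters and not of binding.

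The libraries differ in ways that bear on every value below. Each F-Seq list holds 100000 peaks, which cover 88.8 to 100.7 Mb in 6 libraries (C2, C13, C10) and 62.5 and 78.9 Mb in C18. The share of F-Seq peaks that HOMER also listed was 71.1% to 94.4% in those 6, against 42.45% and 41.96% in C18, and HOMER listed 171712 to 260118 peaks in those 6, against 72379 and 83548 in C18. The lists hold no read counts, so depth is unknown. Covered bases of a locus were therefore divided by each library's relative total, from 0.701 to 1.13, and are given as scaled kb. Over all loci, the median log2 difference in the 3 contrasts below was 0.17, 0.20 and 0.29 without this scaling, against 0.06, -0.06 and -0.14 with it. A peak's rank is its place in the authors' order of signal, with 1 the strongest, and is used to describe peaks without a test. Of the loci of the sort markers, Cd34 averaged 17.9 ± 2.2 kb in the CD34bright cells of C2 and 17.8 ± 1.0 kb in C13 (SD over 2 libraries). The CD34dim cells of C10 had 19.2 ± 0.33 kb and those of C18, also CD34dim, 10.3 ± 0.71 kb. Cd34 did not pass when C2 was set against both (limma adjusted p = 0.185) and passed in C10 against C18 (0.00666), and with HOMER peaks it was lower in C10 (-1.25, 0.0026). Cd48 was more covered in C10 than in C18 (5.30 ± 0.40 kb against 3.28 ± 0.82 kb, SD over 2 libraries, limma adjusted p = 0.0422). The CD41 gene Itga2b averaged 4.51 ± 0.001 kb in the CD41- cells of C13, with 3.75 ± 0.084 kb for C10 and 7.11 ± 0.67 kb for C18, and did not pass when C13 was set against both (adjusted p = 0.446). Kit had 8.43 to 10.6 kb as population means. In bulk libraries, fewer cells with an open site and a less open site per cell cannot be told apart.

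**Figure D2:**
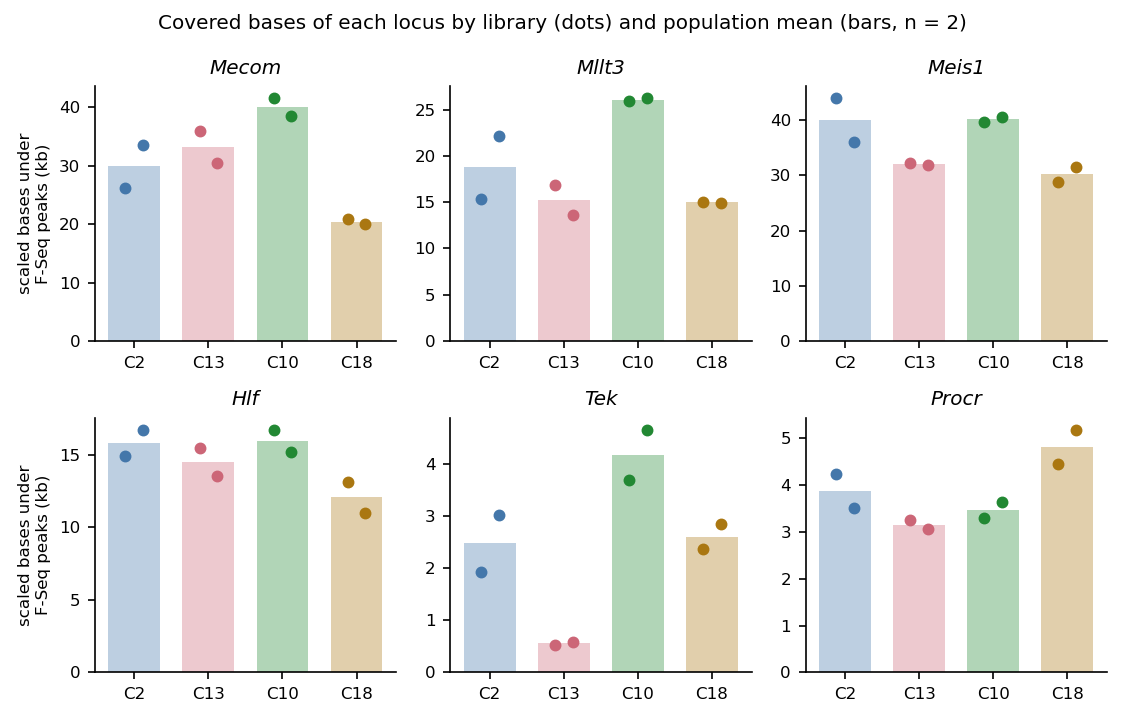
Scaled bases under F-Seq peaks (kb, vertical axes start at 0) at the 6 loci, with a dot for each library and a bar for the mean of the 2 libraries of a population. Tek is lowest in both C13 libraries, Mecom and Mllt3 are highest in both C10 libraries, and Procr is highest in both C18 libraries.

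The sort poses 3 questions, namely whether the CD34bright cells differ from the CD34dim CD41+ CD9+ cells, whether the CD41- CD9- cells do, and whether bright and dim CD48 differ. In the first, C2 was set against C10 and C18 averaged, in the second C13 against the same average, and in the third C10 against C18. They share libraries. Values were tested as log2(scaled bases + 200), a scale that shrinks changes at sparsely covered loci, with limma over 18933 loci covered in at least 2 libraries and Benjamini-Hochberg adjustment.

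Tek, the gene of the TIE2 receptor, was less covered in the CD41- CD9- cells. Its locus had 0.53 and 0.59 kb under F-Seq peaks in the C13 libraries. The C10 libraries had 3.69 and 4.66 kb, the C18 libraries 2.36 and 2.85 kb and the C2 libraries 1.93 and 3.02 kb. Both C13 libraries were below the other 6. Tek fell by 2.20 ± 0.24 (SE) on the log2 scale in C13 against C10 and C18 (limma adjusted p = 0.00999). It was the only one of the 6 loci called in this contrast. Of all loci tested, 4.40% were called lower in C13 and 3.87% higher. Of the other members, Mllt3 had -0.38 ± 0.16 (adjusted p = 0.164), Procr -0.35 ± 0.16 (0.205), Meis1 -0.12 ± 0.10 (0.51), Hlf 0.06 ± 0.12 (0.756) and Mecom 0.21 ± 0.13 (0.316). With HOMER peaks Mecom was called higher in C13 (0.46 ± 0.11, 0.0227), where 10% of all loci were called higher and 17.4% lower. The direction of calls over all loci depended on the scaling, with 733 higher and 833 lower in C13 as reported and 1681 and 245 without scaling.

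The Tek start was the widest of the regions that C13 lacked. Neither C13 library had an F-Seq peak in the region over it, chromosome 4, 94737615 to 94740066. Its peaks were ranked 16830 and 24137 in C10, 43021 and 22992 in C18 and 26063 and 24090 in C2. HOMER, however, listed a short peak in this region in both C13 libraries, covering 227 and 150 bases, against 1449 and 1272 in C10, 0 and 345 in C18 and 484 and 750 in C2. The start held 2433 and 2352 unscaled bases in C10, of 3899 and 5194 at the locus, 1656 and 1273 in C18, of 1656 and 2524, and 1011 and 1962 in C2, of 1927 and 3076. Another region, 5.86 kb after the start (94744671 to 94745634), was called in C10 (504 and 964 bases) and in C2 (629 and 501 bases), and in no library of C13 or C18 by either caller. The other 6 regions absent from the C13 F-Seq lists were called in 1 or 2 libraries each. A region in the gene body, 29.6 kb after the start (94768453 to 94769364), ran the other way. It had peaks in C13 (ranks 53323 and 56480) and in C10 (67173 and 57850) and none in C2 or C18. The C13 coverage of Tek in the F-Seq lists came from this region alone.

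The Tek call was made with F-Seq lists and was lost without any 1 library of C13 or C10. With HOMER peaks the difference was -0.94 (adjusted p = 0.291), and with F-Seq peaks that overlap a HOMER peak -1.37 (0.344). With the number of peaks in place of bases it was -1.36 (0.0551). Without the C18 libraries, C13 against C10 alone gave -2.54 (0.0166). Without C13 replicate 1 or 2 the adjusted p was 0.113 or 0.129, and without C10 replicate 1 or 2 it was 0.0545 or 0.0518. Over all 21 alternatives the difference lay between -2.54 and -0.94, and it passed in 14.

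Other genes of angiopoietin signalling were called in both directions in C13, where 3.87% of all loci were higher and 4.40% lower. Of 10 tested, Angpt4, a ligand of TIE2, and Foxo1, a transcription factor downstream of it, were higher (log2 difference 1.03 ± 0.16 and 0.81 ± 0.16 SE, adjusted p = 0.017 and 0.0286), also with HOMER peaks (0.91 and 0.77, 0.023 and 0.0207). Tie1, the receptor most like TIE2, was lower by the fit (-1.69 ± 0.30, adjusted p = 0.022), with 0.77 ± 0.04 kb in C13, whereas C10 had 2.81 ± 0.14 kb and C18 had 3.28 ± 1.71 kb. With HOMER peaks Tie1 had -0.25 (adjusted p = 0.481). Of 16 endothelial loci, Tie1 was lower and Cdh5, the cadherin of endothelial junctions, higher (1.03 ± 0.11, adjusted p = 0.00999), and the other 14 did not pass. With HOMER peaks Cdh5 had 0.61 (0.17). The summed coverage of the endothelial list was 119.2 and 124.9 kb for C13, 122.4 and 123.2 kb for C10 and 127.1 and 130.7 kb for C18, and no locus of it was at 0 in both libraries of a population. Its part in the Tek result was not tested.

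The erythroid and megakaryocyte loci called in C13 from F-Seq lists were lower, where 4.40% of all loci were. Of 23 erythroid loci 13 were lower and 0 higher, among them Gypc, a glycophorin (-0.85 ± 0.12, adjusted p = 0.0155), and Zfpm1, the GATA1 partner FOG1 (-0.97 ± 0.15, 0.0171). Of 21 megakaryocyte loci 5 were lower and 0 higher, led by Rab27b, a granule GTPase (-1.94 ± 0.13, 0.00369), with Gp9, a platelet receptor chain, at -0.89 ± 0.12 (0.0143). With HOMER peaks, 8 erythroid loci were lower and 0 higher, without Gypc (-0.30, 0.219) and Zfpm1 (-0.27, 0.183), and 7 megakaryocyte loci were lower and 1 higher, with Rab27b (-1.01, 0.00629) and Gp9 (-0.65, 0.0462) lower. Without scaling, where 1681 of all loci were higher and 245 lower, 4 erythroid loci were lower. Of the megakaryocyte loci 2 were then lower and 1 higher. Passing the threshold rested on single libraries, while the list medians changed little. From F-Seq lists the erythroid median was -0.65 with all libraries and -0.61 to -0.69 with any 1 library of C13 or C10 left out. The megakaryocyte median was -0.41, and -0.37 to -0.42 in those fits. With any 1 library of C13 or C10 left out, 0 erythroid loci and 1 megakaryocyte locus were called, and of all loci 11 or 5 were called without C13 replicate 1 or 2 and 29 or 85 without C10 replicate 1 or 2. Angpt4, Foxo1, Tie1 and Cdh5 were not called in those 4 fits either. The erythroid list summed to 130.2 and 134.0 kb for C13, 157.4 and 180.6 kb for C10 and 217.6 and 273.2 kb for C18. The megakaryocyte list summed to 117.5 and 123.9 kb for C13, 158.1 and 167.1 kb for C10 and 163.2 and 176.1 kb for C18. The part of these cells in the Tek result was not tested.

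**Figure D3:**
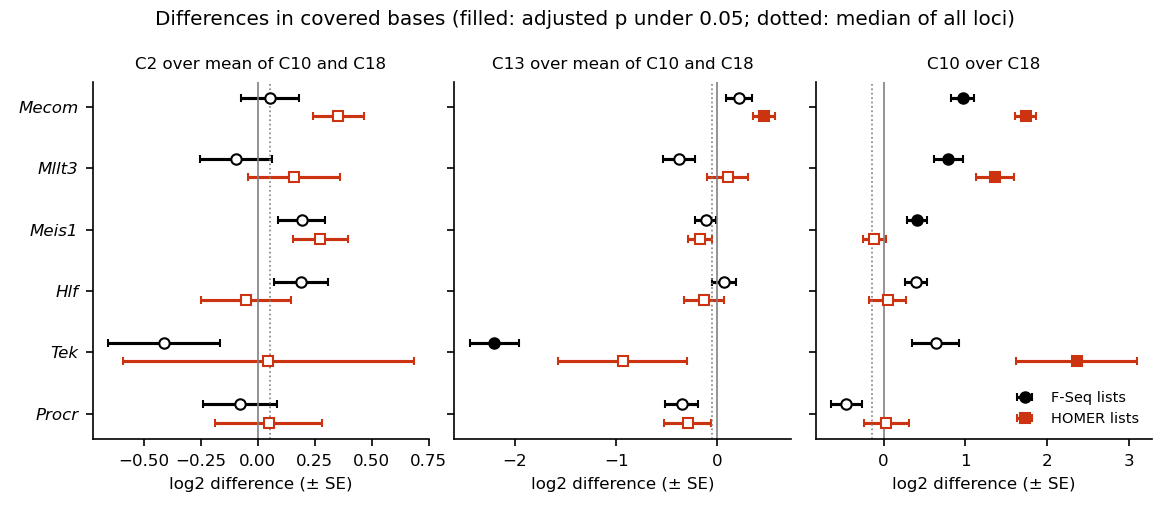
Log2 difference in scaled covered bases with its SE for the 6 loci in the 3 contrasts, from F-Seq lists (circles) and HOMER lists (squares), filled where the adjusted p was under 0.05, with the median of all loci dotted. Tek in C13 is filled for F-Seq only, and Mecom and Mllt3 in C10 against C18 are filled for both callers.

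Mecom and Mllt3 carried more coverage in the bright than in the dim CD48 cells. Mecom had 41.6 and 38.6 kb in C10, against 20.86 and 19.96 kb in C18, with no overlap. The difference was 0.97 ± 0.15 (SE, limma adjusted p = 0.00765). Mllt3 had 25.9 and 26.2 kb in C10, against 15.002 and 14.919 kb in C18, a difference of 0.79 ± 0.18 (adjusted p = 0.0197). Meis1 had 39.7 and 40.7 kb in C10, against 28.9 and 31.5 kb in C18, a difference of 0.41 ± 0.12 (adjusted p = 0.0417). These were 3 of 6 loci called, all higher in C10, while 9.13% of all loci were called higher and 18.1% lower. These shares are 1729 and 3421 loci, and without scaling 4101 were higher and 538 lower.

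The remaining loci did not pass in this contrast. Hlf had 16.7 and 15.2 kb in C10, against 13.116 and 11.004 kb in C18 (0.40 ± 0.14, adjusted p = 0.0637, and 0.0293 without C18 replicate 1). Tek had a difference of 0.64 ± 0.28 (0.129). Procr went the other way, with 3.29 and 3.64 kb in C10, against 4.46 and 5.18 kb in C18 (-0.45 ± 0.19, 0.108), without overlap between the libraries.

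The 2 callers matched for Mecom and Mllt3 and differed for the others. With HOMER peaks Mecom had 14.5 and 14.4 kb in C10, against 4.13 and 4.25 kb in C18 (1.74 ± 0.13, adjusted p = 0.000509), and Mllt3 had 8.97 and 9.14 kb, against 2.75 and 4.20 kb (1.36 ± 0.23, 0.0026). Of all loci, 18.2% were called higher and 34.0% lower with HOMER. Tek passed there (2.36 ± 0.735, 0.0283), and C18 replicate 1 had no HOMER peak in its locus. Meis1 turned to -0.11 (0.526), Hlf had 0.05 (0.876) and Procr 0.04 (0.927).

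The C18 libraries, with narrower peaks and fewer HOMER peaks, stand on one side of this contrast. Housekeeping loci, chosen as a reference, had a median of -0.40 in C10 against C18 with F-Seq and of -1.02 with HOMER (3 of 18 lower and 1 higher with F-Seq, and 13 lower with HOMER), where all loci had -0.14 and -0.25. Other lists went either way. The macrophage list had a median of 0.58 with F-Seq and 1.17 with HOMER, and the erythroid list -0.49 and -0.81. The part of library quality in these differences was not tested. Without C10 replicate 1 no member was called (Mecom adjusted p = 0.0699, Mllt3 0.112, Meis1 0.161), and no locus of the whole set was. Without C10 replicate 2, Mllt3 (0.0915) and Meis1 (0.155) did not pass. Meis1 also did not pass without C18 replicate 1 (0.0807), C13 replicate 1 (0.0789) or C13 replicate 2 (0.0786). Of 21 alternatives, Mecom passed in 19, Mllt3 in 18 and Meis1 in 8.

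Whether CD34bright cells differ from CD34dim cells was not resolved at these loci. None of the 6 was called in C2 against C10 and C18, where 0.00% of all loci were called in either direction by limma. Differences ran from -0.41 ± 0.24 (SE) at Tek to 0.19 ± 0.10 at Meis1, and the lowest unadjusted p of a member was 0.106. Of all loci, 3352 had an unadjusted p under 0.05. With HOMER peaks 0.236% of all loci were called higher and 0.0262% lower, 50 in all, and none was a member. No alternative called a member in this contrast, while without the C18 libraries 2450 of all loci were called. In that fit, C2 against C10 alone gave -0.43 for Mecom (adjusted p = 0.0929) and -0.49 for Mllt3 (0.122).

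Over the 4 populations together, the moderated F test called 3 of 6 loci, Tek (adjusted p = 0.00935), Mecom (0.0172) and Mllt3 (0.0386), where 28.0% of all loci were called. Meis1 (0.062), Hlf (0.129) and Procr (0.14) did not pass. The Tek call was lost with HOMER peaks (0.0807), with F-Seq peaks that overlap a HOMER peak (0.249), with the number of peaks (0.0608) and without C13 replicate 1 (0.0558). Mecom was lost without C13 replicate 1 (0.055), C10 replicate 1 (0.0696) or C10 replicate 2 (0.0565). Mllt3 was lost without C18 replicate 2 (0.0526), C13 replicate 1 (0.078) or 2 (0.093) and C10 replicate 1 (0.16) or 2 (0.152). Meis1 passed without C2 replicate 2 (0.0356).

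Mecom held the most regions, and single elements inside it differed between populations. Its 68 regions spread over a gene of 558.5 kb, and 28 and 37 were called in C2, 36 and 34 in C13, 43 and 41 in C10 and 20 and 30 in C18. Of these, 11 (16.2%) were called in all 8 libraries, against 19.1% of all regions. A single library called 24, as was the case for 83493 of all 207739 regions. The locus had 26.2 and 33.6 kb under F-Seq peaks in the C2 libraries and 36.0 and 30.5 kb in the C13 libraries, between the values of C10 and C18 given above. The regions singled out in this and the following paragraphs were picked after their ranks were seen. Distances run from the midpoint of a region to the nearest start, and negative values lie upstream.

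The strongest Mecom peak of the CD41- CD9- cells lay 95.8 kb into the gene from the upstream start (chromosome 3, 30412811 to 30415101). It was ranked 2806 and 1875 in C13, against 24955 and 20404 in C10, and 56464 and 26861 in C2, and it was absent in both C18 lists and in both C18 HOMER lists. A region at 93.0 kb, 30416076 to 30417452, showed the reverse. It was called in neither C13 library, by either caller, and in all 6 libraries of C2, C10 and C18, with F-Seq ranks from 26596 to 61409.

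The peaks over the 2 starts of Mecom also differed in which population ranked highest. At the upstream start, which gives MDS1-EVI1, the covering peak was ranked 9206 and 14033 in C13, 47388 and 50571 in C10 and 71626 and 50263 in C2, and no C18 peak covered it. The larger region around that start, at 30503846 to 30512232, was nevertheless called in all 8 libraries. It held the strongest Mecom peak of both C2 libraries (ranks 7172 and 5859) and of C18 replicate 2 (14279). Those peaks did not cover the start itself. At the internal start, which gives EVI1, ranks were 23221 and 29830 in C2, 33769 and 31912 in C10 and 50047 and 45824 in C13, with no peak in C18 replicate 1 and 59149 in replicate 2. Thus, for the peak that covers the start itself, C13 ranked first at the upstream start and below C2 and C10 at the internal one. A region at -2.31 kb from the internal start (30014806 to 30016226) was called in all 8 libraries with ranks from 7517 to 18332.

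**Figure D4:**
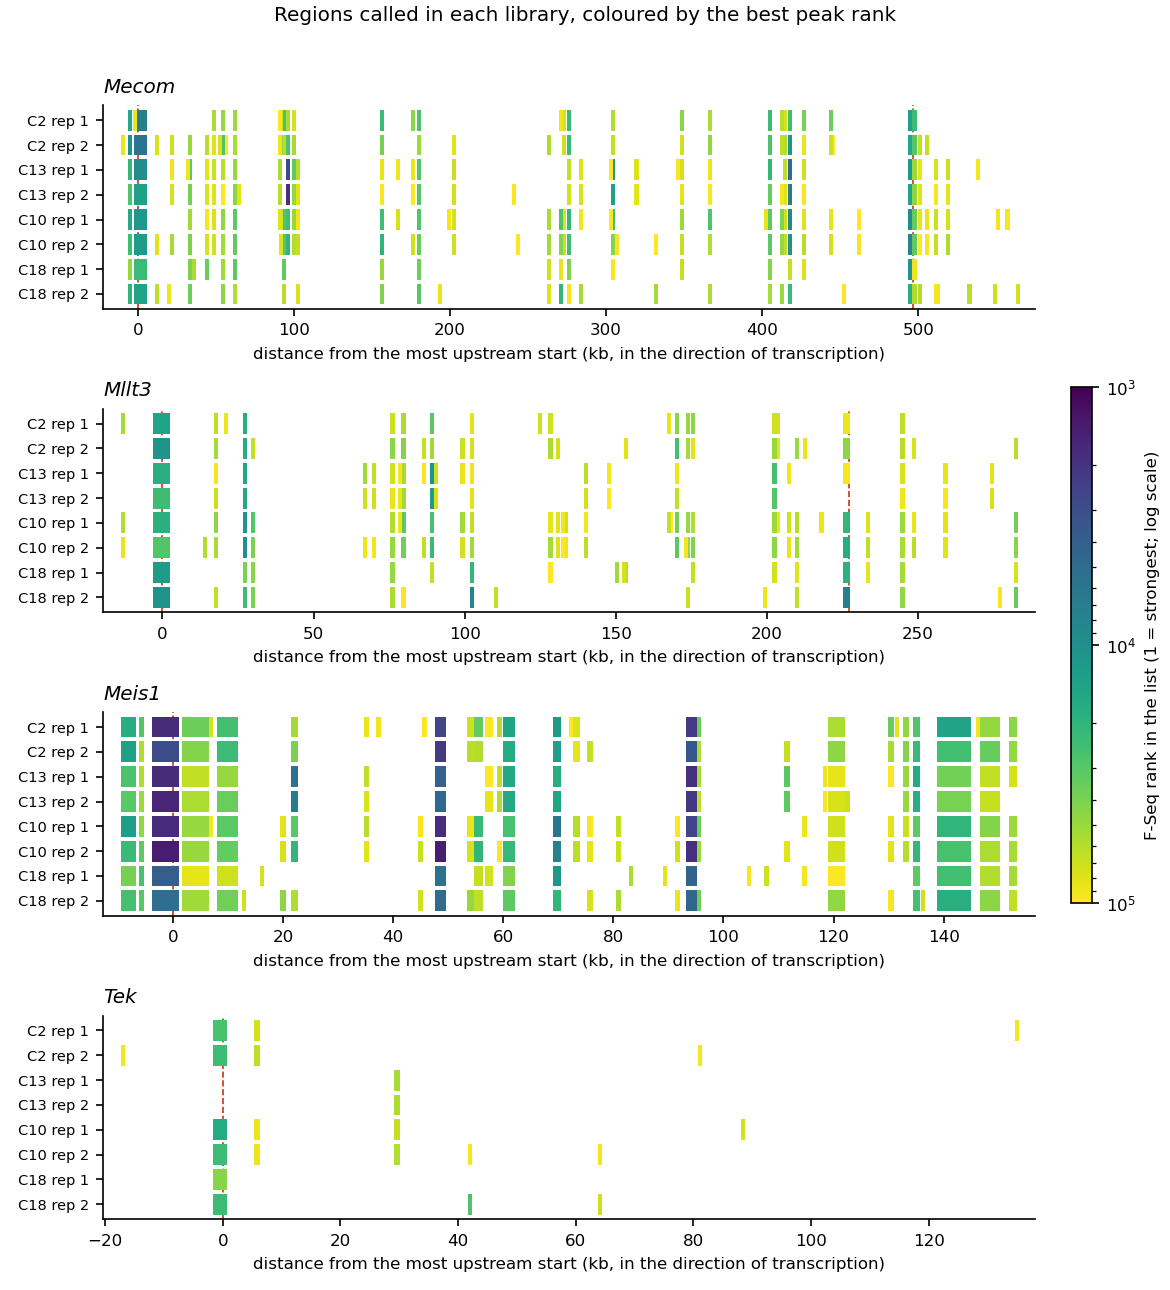
Merged regions along the loci of Mecom, Mllt3, Meis1 and Tek by distance from the most upstream start (kb, in the direction of transcription), 1 row per library in the order C2, C13, C10 and C18, coloured by the best F-Seq rank in the region (log scale, 1 is strongest). Dashed lines mark annotated starts, and narrow regions are drawn at a minimum width. The dark block at 95.8 kb in the Mecom panel is present in C13 and absent in C18, and the Tek start has no block in C13.

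Mllt3 held fewer shared elements, with 5 of 49 regions (10.2%) called in all 8 libraries, against 19.1% of all regions. Regions called numbered 19 and 24 in C2, 22 and 18 in C13, 32 and 32 in C10 and 17 and 15 in C18. Covered bases were 15.4 and 22.2 kb in the C2 libraries and 16.8 and 13.6 kb in the C13 libraries, and both C10 libraries lay above all others. Its upstream start, rich in CpG pairs, was called in all 8 with ranks from 10456 to 28826. Its internal start, poor in CpG pairs, was covered by no peak in C13, and by peaks ranked 21115 and 17328 in C10, 19202 and 7063 in C18 and 88357 and 45929 in C2. HOMER listed peaks in the region of the internal start (chromosome 4, 87805909 to 87808171) in all 8 libraries.

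Elements inside Mllt3 also took different orders. The region 102.3 kb after the upstream start (87930541 to 87931647) was ranked from 53079 to 89145 in C2, C13 and C10, against 20539 and 8196 in C18. The strongest Mllt3 peak of C13 was at 87944078 to 87944937, ranked 10068 and 12583. The region 27.2 kb after the start (88005694 to 88006726) was ranked 11236 and 9853 in C10, the highest of that population, and was called in all 8 libraries.

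Meis1 was open at strong elements shared by every library. Of its 46 regions 13 (28.3%) were called in all 8 libraries, against 19.1% of all regions, and 3 of the 13 ranked high in each. Covered bases were 44.019 and 36.0 kb in the C2 libraries and 32.3 and 31.9 kb in the C13 libraries, so that C2 overlapped C10. The start region (chromosome 11, 19017866 to 19022693) had ranks from 1413 to 5192, the region 48.6 kb into the gene (18969283 to 18971412) from 1464 to 5532, and that at 94.1 kb (18923859 to 18925825) from 1886 to 4573. One element differed, at 22.1 kb (18996274 to 18997427), which was ranked 5639 and 7111 in C13, 30646 and 21153 in C10 and 53208 and 40043 in C2, with no peak in C18 replicate 1 and 57810 in replicate 2. At 55.5 kb, the region 18962687 to 18964225 was called in neither C13 library and in all 6 libraries of C2, C10 and C18. For 20 of the 46 regions no library had a HOMER peak.

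Hlf and Procr were covered in all populations. Hlf had 14.9 and 16.7 kb in the C2 libraries, 15.5 and 13.5 kb in those of C13, 16.7 and 15.2 kb in C10 and 13.116 and 11.004 kb in C18. Its start region was ranked from 11019 to 25965 in all 8 libraries, and the region 9.52 kb after the start (90379903 to 90382892) was ranked 10504 and 11069 in C10, against 39416 and 46991 in C18. Hlf had the single region called in both C2 libraries and in none of C10 and C18, at 90340138 to 90341150 with ranks 65047 and 97821, which HOMER listed in 1 C2 library. Procr, a gene of 4.4 kb, had 5 regions, of which 4 were called in all 8 libraries, where 19.1% of all regions were. It had 4.24 and 3.52 kb in C2 and 3.25 and 3.06 kb in C13, and these ranges overlapped neither each other nor those of C18. The region at -8.24 kb (155742064 to 155743893) was ranked 87350 and 71097 in C13, against 21227 to 34782 in the other 6 libraries.

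Counts over all 199 regions are given as a description, with no test. Of the 199, 37 (18.6%) were called in all 8 libraries, against 19.1% of all regions. Regions called in both C10 libraries and in neither C18 library numbered 28 (14.1%), against 8.51% of all regions, with 11 at Mecom and 10 at Mllt3, and the converse pattern was found at none, against 2.29%. Called in all 4 libraries of C10 and C18 and in neither C13 library were 8 (4.02%), against 1.73%, with 3 each at Mecom and Mllt3 and 1 each at Meis1 and Tek. The pattern of both C13 libraries and none of C10 and C18 was found at 5 (2.51%), against 5.48%. That of both C2 libraries and none of C10 and C18 was found at 1, against 0.710%, and the converse at none, against 0.392%. With the C18 libraries left out, a choice made after seeing the data, 31 regions were called in both C10 libraries and not in C13, and 16 in both C10 libraries and not in C2. For this choice and for the counts that follow no share over all regions is given, so they do not single out the members. Single libraries moved several of the counts. Leaving out C18 replicate 2 or C10 replicate 2 gave 47 or 43 regions called in C10 but not C18, and leaving out C18 replicate 1 or 2 gave 14 or 11 called in C18 but not C10. Regions called in C10 and C18 but not C13 were 15 with C18 replicate 1 left out. Those called in C13 but not C10 or C18 were 8 with either C13 library left out and 11 with C10 replicate 2 left out. Those called in C2 but not C10 or C18 were 9 and 11 with C2 replicate 1 and 2 left out, and 3 with C10 replicate 1 left out. The converse count was 1 and 6 with C2 replicate 1 and 2 left out, and 7 and 1 with C18 replicate 1 and 2 left out.

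**Figure D5:**
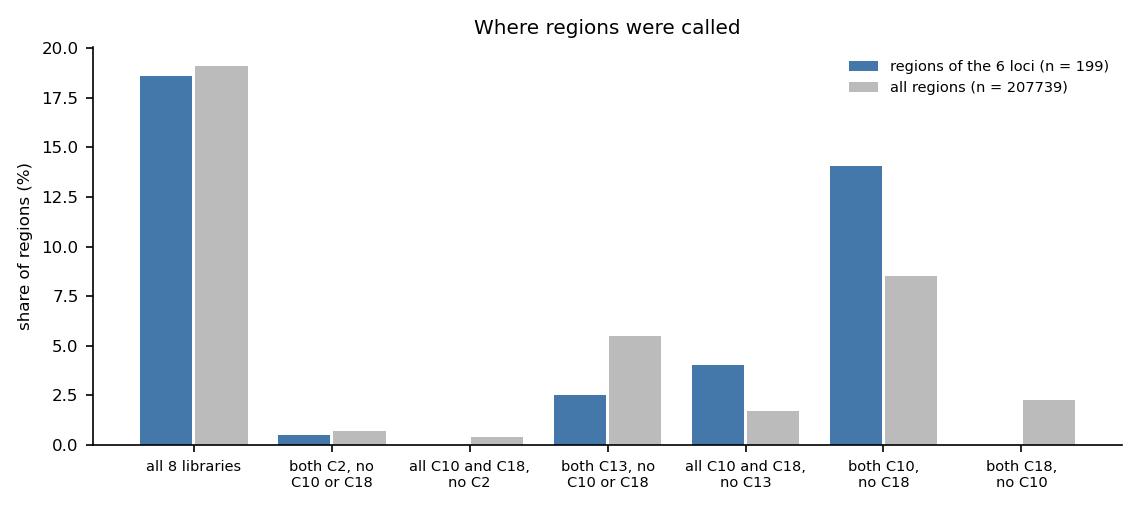
Share of regions (%, axis starts at 0) with each pattern of calls over the libraries, for the 199 regions of the 6 loci and for all 207739 regions. The share called in both C10 libraries and in neither C18 library is 14.1% for the 6 loci and 8.51% for all regions.

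Partners and relatives of the members were called in both directions in C10 against C18, and many calls depended on the caller, the scaling or 1 library. Among 43 other stem cell regulators 7 were higher and 6 lower, where 9.13% of all loci were higher and 18.1% lower. Among those with the smallest p were Cd34 (0.89 ± 0.12, adjusted p = 0.00666), Myct1 (1.05 ± 0.17, 0.00841) and Zfp521 (0.73 ± 0.15, 0.016), all higher in C10, and Runx1 (-0.84 ± 0.15, 0.0099) and Lyl1 (-0.65 ± 0.14, 0.0162), lower. With HOMER peaks 7 were higher and 14 lower, where 18.2% of all loci were higher and 34.0% lower. Cd34 was then lower in C10, as given above, and Myct1 did not pass (-0.26, 0.544), while Zfp521 (0.68, 0.0128), Runx1 (-0.82, 0.00149) and Lyl1 (-1.41, 0.000846) passed in the F-Seq direction. Without scaling 13 were higher and 0 lower, where 4101 of all 18933 loci were higher and 538 lower. In C13 against C10 and C18, 1 was higher and 4 lower, where 3.87% of all loci were higher and 4.40% lower. Among the 4 was Gata2, a factor of stem and mast cells, at -1.08 ± 0.14 (0.0137). With HOMER peaks 2 were higher and 9 lower, and Gata2 had 0.23 (0.336). The median of the list was -0.06 in C10 against C18 and -0.06 in C13 against C10 and C18, where all loci had -0.14 and -0.06.

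Of 13 MEIS and HOX partners, 2 were higher in C10 than in C18, among them Meis2 (1.55 ± 0.31, adjusted p = 0.0143), and 4 lower, among them Hoxb4 (-0.85 ± 0.19, 0.0186) and Pknox1 (-0.88 ± 0.23, 0.0286). With HOMER peaks Meis2 passed (1.92, 0.000793), and Hoxb4 (0.27, 0.405) and Pknox1 (-0.41, 0.111) did not. In C13, Meis3 was higher (0.99 ± 0.17, 0.0214), but did not pass with HOMER peaks (0.61, 0.202). Of 10 relatives and targets of the Mecom proteins, 1 was higher and 2 lower in C10 than in C18, with Ctbp1, a corepressor that binds EVI1, at -1.29 ± 0.30 (0.0214), and 2 were lower in C13. With HOMER peaks 1 of these 10 was higher and 5 lower in C10, and 2 were lower in C13. Of 3 relatives of Hlf, Dbp was lower in C10 than in C18 (-0.70 ± 0.14, 0.0145) and none passed in C13 with F-Seq lists. With HOMER peaks 2 of the 3 were lower in C13, among them Dbp (-0.84, 0.0324). Of 14 elongation factors 5 were lower in C10 than in C18 and 1 in C13, with Ell lower in both contrasts (-0.89 ± 0.13, 0.00702, and -0.66 ± 0.11, 0.0205) and Dot1l, the histone methyltransferase recruited by AF9, at -0.60 ± 0.16 (0.0288) in C10. Mllt3 itself was higher in C10. With HOMER peaks 8 of the 14 elongation factors were lower in C10 and 5 in C13. Of 11 protein C pathway loci, Pros1, which encodes the cofactor protein S, was higher (1.06 ± 0.19, 0.0111) and F2, prothrombin, lower (-1.67 ± 0.26, 0.00807) in C10 than in C18, and F2r, the thrombin receptor, was lower in C13 (-0.79 ± 0.19, 0.0499). With HOMER peaks F2 passed (-1.28, 0.00419), and Pros1 (-0.02, 0.942) and F2r (-0.50, 0.0846) did not. Of the 10 angiopoietin loci, 3 were higher and 2 lower in C10 than in C18, with Ptprb, the phosphatase that acts on TIE2, at 0.76 ± 0.17 (0.018), and at 0.45 (0.0675) with HOMER peaks. Ctbp1, Dbp, Dot1l and, in both contrasts, Ell passed with HOMER peaks in the same direction. Without scaling Runx1, Lyl1, Hoxb4, Pknox1, Ctbp1, Dbp, Ell and Dot1l no longer passed in C10 against C18. Without C10 replicate 1 no locus of any list was called in that contrast, and without C10 replicate 2, 2 stem cell regulators were higher and 1 lower. In C13 no locus of the stem cell regulators or of these partner lists was called with any 1 library of C13 or C10 left out.

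Lists for other cells are read beside the 9.13% of all loci higher and 18.1% lower in C10 than in C18. There 3 were higher and 4 lower of 21 megakaryocyte loci, 0 and 6 of 23 erythroid, 0 and 2 of 20 granulocyte and monocyte, 6 and 3 of 20 lymphoid, 1 and 0 of 15 macrophage and 3 and 1 of 16 endothelial loci. With HOMER peaks the same counts were 2 and 9, 1 and 13, 1 and 10, 6 and 4, 8 and 2 and 5 and 5. Of all loci, 18.2% were higher and 34.0% lower with HOMER. In C13, where 3.87% of all loci were higher and 4.40% lower, 1 was higher and 2 lower of the granulocyte and monocyte loci, 5 and 0 of the lymphoid, 1 and 0 of the macrophage and 0 and 0 of the 18 housekeeping loci. With HOMER peaks these were 1 and 3, 6 and 3, 8 and 0 and 0 and 9. In C2 against C10 and C18 limma called no locus of any of the 14 lists.

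Each member was last set beside the protein-coding loci whose coverage over the 8 libraries was most like its own, as Pearson r over log2 values of the same 8 libraries. The libraries share their scaling and peak width, so r is a description. Mecom was most like Nr2f2 (0.984), Nkx3-2 (0.979) and Smad1 (0.975), and Mllt3 like Ankef1 (0.966), Sugct (0.954) and Palld (0.953). Meis1 was most like Rab12 (0.987), Thsd7a (0.986) and Wdr1 (0.977), and Hlf like Gpr63 (0.976), LOC105244150 (0.971) and Slc7a11 (0.96). Tek was most like Ranbp3l (0.983), Ndst3 (0.977) and Nsfl1c (0.972), and Procr like Bccip (0.993), Tgoln1 (0.99) and Lpcat3 (0.989). Among the members, r was 0.848 for Mecom with Hlf and 0.751 for Mecom with Mllt3, against -0.846 for Mecom with Procr and 0.02 for Mecom with Tek.

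Other annotated genes lie within these loci and share their peaks. They are the long noncoding RNA genes Gm52621 and Mecomos and the misc_RNA gene Gm10258 at Mecom, Gm34232 at Mllt3, 8430419K02Rik and Gm16141 at Meis1 and Gm40205 at Tek, and the protein-coding genes Eqtn at Tek and Mmp24 at Procr. Peaks that overlap these genes cannot be assigned to the member alone.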

How the data were processed

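Peak lists of 8 ATAC-seq libraries were analysed. Per the submitters' processing notes, reads were handled with Bowtie 1.0.0 and HOMER 1.0 on mm10. The deposited F-Seq lists give each peak's height as the authors' signal, and the sources used here give no F-Seq version. The deposited HOMER lists hold 150-base peaks with 2 unlabelled score columns from the authors. Lists were called per library, and signal was used only to rank peaks. Groups follow the sample titles, since the clusters named in the series text are partly others.

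From these, covered bases per locus were computed with RefSeq GRCm38.p6 genes, scaled, and tested as log2(bases + 200) with limma 3.58.1 (R 4.3.3), with a mean for each population and trended eBayes, two-sided, at an adjusted p of 0.05. The fit assumes 1 spread of a locus in all groups. A region was called where at least 1 base overlapped a peak. The method was tested on simulated data. Members, 14 lists (237 entries, all matched) and tests were chosen with earlier results of these data known. Named were all members, list loci past the threshold (at most 6 by smallest p; some given as counts), the 3 loci most alike and overlapping genes. A list locus that met this rule is not reported here. No genome was used.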

Additional observations from a re-analysis of the deposited data

How the results depend on the processing

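Mecom in C10 against C18 kept its direction in 21 of 21 alternatives (log2 difference 0.743 to 2.046) and passed in 19, and Tek in C13 against C10 and C18 kept its direction in 21 and passed in 14. For other changes below the cause was not tested. The contrasts are named by their first population: C2 and C13, each against the mean of C10 and C18, and C10 against C18. Log2 differences changed sign as follows, all of them values that had not passed, apart from Mllt3 and Meis1 in C10.

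With HOMER lists, C2 gave 0.158 for Mllt3, -0.051 for Hlf, 0.047 for Tek and 0.048 for Procr, C13 gave 0.103 for Mllt3 and -0.134 for Hlf, and C10 gave -0.113 for Meis1 and 0.036 for Procr. With F-Seq peaks that overlap a HOMER peak, C2 gave 0.097 for Mllt3, 0.302 for Tek and 0.096 for Procr, and C13 gave 0.009 for Meis1. With the 20000 strongest peaks, in which 4 members could be tested, C2 gave 0.456 for Mllt3, C13 gave 0.145 for Mllt3, 0.269 for Meis1 and -0.844 for Hlf, and C10 gave -0.334 for Mllt3 and -0.017 for Meis1. With the number of peaks in place of bases, C2 gave -0.092 for Meis1 and 0.194 for Tek, and C13 gave -0.126 for Hlf. Without scaling, C2 gave 0.024 for Mllt3 and 0.041 for Procr, and C13 gave 0.149 for Meis1. Without extension of the loci, C2 gave -0.036 for Mecom and 0.433 for Procr, and C13 gave 0.011 for Procr. Without the C18 libraries, C2 against C10 gave -0.429 for Mecom, -0.014 for Meis1, -0.013 for Hlf and 0.151 for Procr, and C13 against C10 gave -0.273 for Mecom and -0.137 for Hlf. Leaving out 1 library gave -0.125 to 0.232 for Mecom, -0.357 to 0.166 for Mllt3 and -0.205 to 0.053 for Procr in C2, and -0.031 to 0.159 for Hlf in C13.

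Members called in C13 numbered 1, and 0 with F-Seq peaks that overlap a HOMER peak or with the number of peaks. With HOMER lists the 1 locus was Mecom and not Tek. Over 22 alternatives Mecom in C13 gave -0.273 to 1.81 and passed in 2. Members called in C10 numbered 3, and 1 with the 20000 strongest peaks or with the number of peaks. The F test called 3, and 1 with the 20000 strongest peaks or without the C18 libraries, 0 with the number of peaks and 5 without scaling. Leaving out 1 library gave 0 to 1 in C13, 0 to 3 in C10 and 0 to 4 in the F test. A model with the replicate number as a block called 0 members in C2, 1 in C13, 2 in C10, where Meis1 had an adjusted p of 0.0545, and 2 in the F test. Of all loci it called 1180 in C13 and 4824 in C10. Deviations of libraries with the same number correlated by -0.029 to 0.142 over the 6 pairs of populations. These values neither show nor exclude that the numbers pair the libraries.

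Counts of regions at the 6 loci depended on the caller and on the overlap. For the settings of this paragraph no share over all regions is given, so the counts do not single out the members. HOMER listed 72379 and 83548 peaks in C18, against 235812 and 260118 in C10. With HOMER lists (336 regions), 21 were called in all 8 libraries, 2 in C2 and not in C10 or C18, 19 in C13 and not in C10 or C18, 3 in C10 and C18 and not in C13, and 117 in C10 and not in C18. With the 50000 strongest peaks (78 regions) the counts were 16 in all 8 libraries, 1 in C10 and C18 and not in C2, 2 in C13 and not in C10 or C18, 11 in C10 and not in C18, and 1 in C18 and not in C10. Where at least 50% of a region had to be covered, 10 were called in all 8 libraries, 2 in C2 and not in C10 or C18, 2 in C10 and C18 and not in C13, and 58 in C10 and not in C18. Without the C18 libraries, chosen after seeing the data, 16 were called in C10 and not in C2 and 31 in C10 and not in C13. Leaving out 1 library gave 1 to 11 regions of C2 and not C10 or C18, 0 to 7 of C10 and C18 and not C2, 5 to 11 of C13 and not C10 or C18, 8 to 15 of C10 and C18 and not C13, 28 to 47 of C10 and not C18, and 0 to 14 of C18 and not C10.

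Loci called over the whole set varied from 0 to 2450 in C2, 5 to 5236 in C13 and 0 to 9966 in C10. Where leaving 1 library out left a population with 1, the fit assumed that it varies like the others. Depth is unknown, so a missing peak does not show closed chromatin.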
